A study of Rattus norvegicus with 10 samples.

Results

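*Atp2a3* encodes SERCA3, a pump of the endoplasmic reticulum membrane that moves calcium ions from the cytosol into the reticulum at the cost of ATP. Its row in the deposited count table, identifier ENSRNOG00000017912, was followed through all 10 libraries, and it is 1 of 32622 Ensembl genes in the table. The gene was singled out from earlier results of the same data because it was high in the HS14 cultures against Control. Its level in HS14 is therefore given as a description without a test, and tests are given only for comparisons that hold no HS14 library.

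The libraries were made from cultured myoblasts, the progenitor cells of skeletal muscle, which were isolated from the soleus of 3-month-old male Wistar rats and purified by pre-plating. The Control group came from caged rats with loaded limbs, and the HS1, HS3, HS7 and HS14 groups from rats whose hindlimbs had been lifted off the floor (hindlimb suspension, HS) for 1, 3, 7 and 14 days. All cultures were grown in the same serum-containing growth medium, without induction of differentiation. Each of the 5 groups had 2 libraries, and the sources used here do not say whether these came from separate animals or cultures, so that the spread given may be technical. The cells were harvested a day after pre-plating, a step meant to remove fibro-adipogenic progenitors, and no genetic change of the rats is named in the labels.

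The SERCA pumps refill the calcium store of a cell after each release. In muscle fibres this work is done mainly by SERCA1 and SERCA2, products of *Atp2a1* and *Atp2a2*, while SERCA3 is best known from blood cells, platelets, endothelium and epithelia. Phospholamban and sarcolipin are small membrane proteins that bind SERCA pumps of muscle and restrain them, and the ryanodine receptors release the stored calcium again.

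The RefSeq annotation (assembly GRCr8) places *Atp2a3* on chromosome 10 between *Zzef1* and *P2rx1*, and 0 other annotated genes overlap it there. Because the RNA level of this single gene is what follows, the 250 bases before its annotated start are shown, with the letters GGGCGG (the GC box, on either strand) in capitals. The window lies at chr10:58080402-58080651 on the plus strand of GRCr8, which is not the build that the counts were made on, and the gene record in RefSeq begins upstream of it, so that it belongs to 1 of several annotated starts.

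Atp2a3 upstream window: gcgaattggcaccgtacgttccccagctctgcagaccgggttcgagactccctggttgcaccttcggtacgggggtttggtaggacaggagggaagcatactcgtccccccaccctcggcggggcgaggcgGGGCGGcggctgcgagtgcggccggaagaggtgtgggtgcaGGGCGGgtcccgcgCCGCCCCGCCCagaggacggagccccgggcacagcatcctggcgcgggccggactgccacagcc

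The window was 72.4% G or C, compared with a median of 51.2% over 33469 windows of the same length, and 94.3% of the windows had a lower share. It held 4 GC boxes, beginning 119, 78, 64 and 59 bases before the start, the last 2 of which share a base. A GC box was present in 30.5% of all windows, and at least 4 in 3.67%. The Ets letters CCGGAAG were found at 98 bases before the start (7.27% of all windows hold them), and CCAAT at 246 bases (34.0%). The E-box CANNTG, a motif bound by myogenic factors, was not found in this window but stood in 65.5% of all windows, and TATAAA was likewise not found (12.9%). These are matches of letters on either strand, and binding was not measured.

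*Atp2a3* was lowest in the HS3 cultures and highest in the HS14 cultures, 9.11-fold apart in their mean level, and its course over time was not monotonic. Levels are in CPM, the count of the gene scaled to a common library size after TMM normalization, which corrects for differences in RNA composition. In the Control libraries *Atp2a3* had 5.61 and 5.46 CPM, from 142 and 144 counts. In the HS1 libraries it had 9.68 and 12.2 CPM, from 237 and 281 counts. Both HS1 libraries thus lay above both controls.

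In the HS3 libraries the level was 2.54 and 2.31 CPM, from 50 and 58 counts, below every other library of the series. In the HS7 libraries it was 12.1 and 9.91 CPM, from 299 and 251 counts, which overlapped the HS1 libraries. The HS14 libraries had 21.4 and 22.7 CPM, from 620 and 539 counts, and the lower of them exceeded the highest of the other 8 libraries by 9.2 CPM. All these levels were far above the detection floor of 3 counts, which corresponded to between 0.106 and 0.149 CPM. Most low counts in the table were even numbers, and if both mates of a read pair were counted, which the sources used here do not state, the counts and the floor exceed the number of sequenced fragments; 5 of the 10 counts of *Atp2a3* were even.

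**Figure D1:**
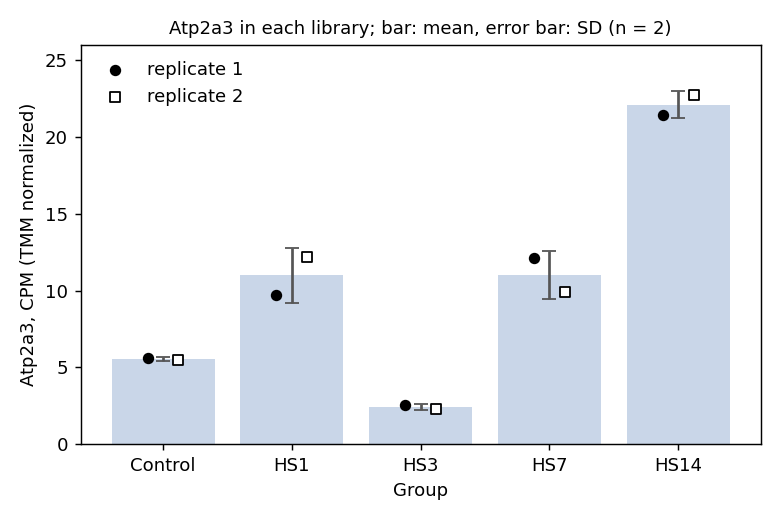
Level of *Atp2a3* in CPM (vertical axis, from 0) in each library of the 5 groups (horizontal axis); points are libraries, bars are group means and error bars the SD (n = 2). The HS3 libraries sit lowest at 2.31 and 2.54 CPM, and the HS14 libraries highest at 21.4 and 22.7 CPM, while HS1 and HS7 overlap.

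As means, the levels were 5.54 ± 0.108 CPM in Control, 11.0 ± 1.8 for HS1, 2.42 ± 0.166 for HS3, 11.0 ± 1.56 for HS7 and 22.1 ± 0.889 for HS14 (SD, n = 2 each). The 2 libraries of a group differed by 0.04 on the log2 scale in Control, 0.34 for HS1, 0.14 for HS3, 0.29 for HS7 and 0.08 for HS14. Its mean log2 CPM over the 10 libraries was 3.04, which lay at percentile 33.4 of the 13691 genes expressed in these libraries, so *Atp2a3* was a gene of modest abundance.

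After 1 day of suspension *Atp2a3* rose, by 0.98 on the log2 scale (standard error 0.17, 95% interval 0.63 to 1.33, Benjamini-Hochberg adjusted p = 0.000114, by the quasi-likelihood test of edgeR, as below), and its mean level was 1.98 times that of Control. Among the 13013 genes tested in that comparison, 6.38% rose at an adjusted p under 0.01. After 3 days it stood below Control instead, by -1.20 (standard error 0.23, 95% interval -1.69 to -0.71, adjusted p = 0.00198 in edgeR), where 4.51% of 13133 genes fell. After 7 days it was again above Control, by 0.99 (standard error 0.17, 95% interval 0.63 to 1.36, adjusted p = 0.000196 in edgeR), where 16.6% of 13164 genes rose. None of these 3 changes reached the log2 fold change of 1.5 that the study asked of a differentially expressed gene (DEG). The 3 comparisons share the control libraries, and Control also entered the choice of the gene.

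The comparisons between time points hold neither Control nor HS14 libraries. From day 1 to day 3 the level of *Atp2a3* fell by 2.17 on the log2 scale (standard error 0.22, 95% interval -2.63 to -1.72, adjusted p = 1.87e-09 in edgeR), and HS3 was below HS1 in both libraries. That change passed the DEG threshold, as did downward changes in 1.48% of the 13008 genes tested. HS7 was above HS3 by 2.17 (standard error 0.22, 95% interval 1.69 to 2.65, adjusted p = 4e-06 in edgeR), also a DEG, as were 1.63% of 13164 genes in the upward direction. HS7 and HS1 could not be told apart (a log2 difference of -0.01 with a standard error of 0.17, edgeR adjusted p = 0.976). In that comparison 34.1% of 13077 genes passed in either direction. The 95% interval of the difference ran from -0.36 to 0.35, so the HS7 level could lie anywhere between 0.777 and 1.27 times that of HS1.

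For HS14 the values are descriptions. The log2 difference of HS14 was 1.99 against Control (standard error 0.13), 0.99 against HS1 (standard error 0.13), 1.01 against HS7 (standard error 0.13) and 3.17 against HS3 (standard error 0.18). The mean level in HS14 was 3.98 times that of Control, and 0.524% of the 13160 genes tested were upward DEGs in HS14 against Control, from which nothing is read here because that comparison chose the gene. The order of the groups was thus HS3, Control, HS1 with HS7, and HS14. HS3 differed from Control and Control from HS1 by the tests above, although Control also entered the choice of the gene. HS3 differed from HS1 and from HS7 in tests without Control. HS1 and HS7 did not differ beyond their spread.

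**Figure D2:**
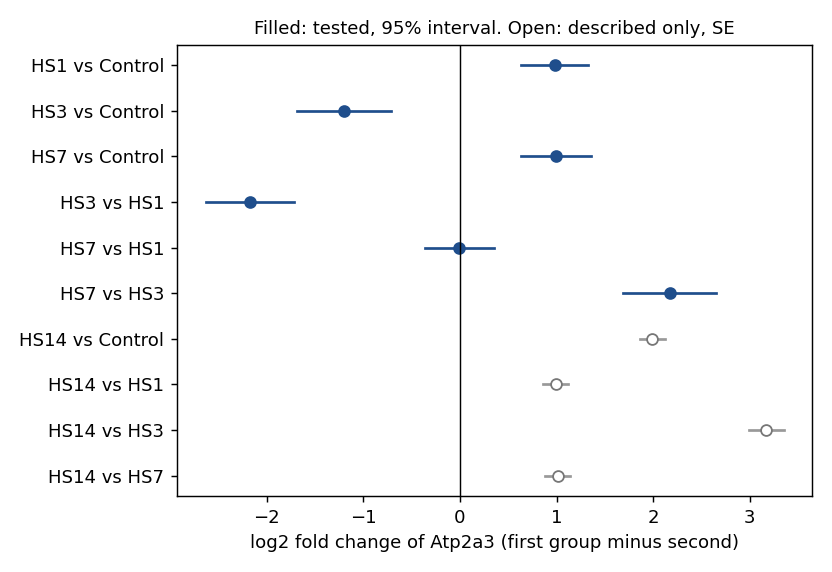
Log2 fold change of *Atp2a3* (horizontal axis, first group minus second) for the 10 pairs of groups (vertical axis); filled points were tested and carry a 95% interval, open points include HS14 and carry a standard error only. HS1 and HS7 lie above Control by 0.98 and 0.99, HS3 lies below it by 1.20 log2 units, and HS7 against HS1 sits at -0.01.

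Bulk RNA cannot tell a change in the number of *Atp2a3*-expressing cells from a change in their RNA per cell, so the markers of cell types were set beside it. A marker could be matched only if the study had called it at some time point. The sums are thus chosen on these samples, leave out markers that were not called, and do not measure cell numbers. Of 11 myogenic markers 6 could be matched to a symbol, and their summed level was 399 to 416 CPM in Control, 240 to 252 for HS1, 602 to 629 for HS3, 1080 to 1430 for HS7 and 367 to 421 for HS14. *Myog*, *Mymk*, *Mymx* and *Chrnd* had counts in every library, so markers of the labelled cell type were present, while *Pax7*, *Myf5* and *Myod1* have no symbol here. The myogenic sum was highest in HS7 and lowest in HS1, groups in which *Atp2a3* was at the same level. *Myog* alone reached up to 883 CPM and *Mymk* up to 315 CPM of it. *Fgfr4*, also in this list, went against the sum in HS3, with 21.3 and 25.0 CPM there and 66.6 and 68.5 in Control.

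The fibroblast list, 8 of 8 markers matched and led by *Col1a1*, summed to 7360 to 7840 CPM in Control, 2410 in both HS1 libraries, 15500 to 19500 for HS3, 8300 to 8340 for HS7 and 2820 to 3010 for HS14. It was thus highest where *Atp2a3* was lowest, although HS7 was close to Control in this sum and above it in *Atp2a3*. Of 12 haematopoietic markers 6 were matched, and they summed to 67.0 to 69.9 CPM in Control, 103 to 104 for HS1, 30.4 to 40.1 for HS3, 53.9 to 57.2 for HS7 and 74.6 to 80.0 for HS14. Like *Atp2a3* this sum was lowest in HS3, but it was highest in HS1, and *Spn* alone reached up to 97.9 CPM of it; *Ptprc* and *Csf1r* have no symbol here.

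Of 11 endothelial markers 9 were matched, and they summed to 10.2 to 13.5 CPM in Control, 9.97 to 10.1 for HS1, 14.1 to 14.3 for HS3, 12.8 to 16.6 for HS7 and 21.8 to 24.1 for HS14. This sum too was highest in HS14, but HS3 was not its lowest group. *Emcn* was at 0 in 4 libraries and *Esam* in 2. Of 8 epithelial or mesothelial markers 6 were matched, with 88.3 to 95.9 CPM in Control, 97.6 to 106 for HS1, 65.6 to 75.7 for HS3, 21.8 to 23.3 for HS7 and 17.1 to 22.1 for HS14. HS7 and HS14 were the lowest groups and overlapped in this sum, whereas *Atp2a3* was higher in HS14 than in HS7. The part of any of these cell types in the level of *Atp2a3* was not tested.

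Among the genes of calcium handling, *Atp2a3* ran against most of the others at day 3, day 1 and day 14. Of 86 listed genes 16 could be matched to a symbol, all of them genes that the study had called at some time point, and the 15 other than *Atp2a3* are counted here; being chosen on these samples, they are not independent evidence of a direction. *Atp2a1* and *Atp2a2* have no symbol here and are not analysed. In HS3 all 15 stood above Control, 13 of them past an adjusted p of 0.01 in edgeR, where 7.0% of all genes rose, and their median log2 fold change was 1.12 against -0.01 over all genes. In HS1, 8 passed as lower and 0 as higher, where 10.5% of all genes fell, with a median of -0.66. In HS14, 9 passed as lower and 1 as higher, where 17.0% and 15.8% of all genes did, with a median of -0.83. With all 10 libraries in one fit, 4 passed in either direction at day 1, 7 at day 3 and 6 at day 14. In the fits of pairs these numbers were 8, 13 and 10. The share of all genes passing in the one fit is not given here. Whether the drop was particular to these genes was not tested.

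Of the proteins that restrain SERCA pumps, both with a symbol were higher in HS3 and lower in HS14, opposite in sign to *Atp2a3*. *Sln*, sarcolipin, had 20.0 and 20.4 CPM in Control, 10.4 and 10.0 for HS1, 38.9 and 45.8 for HS3, 70.1 and 36.7 for HS7, and 6.05 and 4.76 for HS14. It was lower than Control in HS1 (log2 fold change -0.98, standard error 0.12, edgeR adjusted p = 1.18e-06) and in HS14 (-1.90, standard error 0.14, edgeR adjusted p = 1.97e-14), and higher in HS3 (1.06, standard error 0.11, edgeR adjusted p = 1.31e-05). Where *Atp2a3* was at its highest, both HS14 libraries of *Sln* were at their lowest.

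*Pln*, phospholamban, had 2.93 and 3.19 CPM in Control, 3.43 and 2.35 for HS1, 6.20 and 6.76 for HS3, 4.13 and 4.03 for HS7, and 1.11 and 1.01 for HS14. It rose in HS3 by 1.08 (standard error 0.21, edgeR adjusted p = 0.00234) and changed by -1.53 in HS14 (standard error 0.33, edgeR adjusted p = 0.00022), while HS1 could not be told apart from Control (-0.08, edgeR adjusted p = 0.875). From HS3 to HS14 *Pln* changed by -2.63 and *Sln* by -2.98, against 3.17 for *Atp2a3*. *Srl*, sarcalumenin, and *Hrc*, the histidine-rich calcium binding protein, are proteins of the reticulum lumen. Both were also higher than Control in HS3 (0.93 and 1.31) and lower in HS14 (-0.25 and -1.09).

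Of the release side, *Ryr1*, the ryanodine receptor of skeletal muscle, had 29.2 and 33.7 CPM in Control, 80.0 and 96.3 for HS3 and 18.9 and 15.9 for HS14, a log2 fold change of 1.48 in HS3 (edgeR adjusted p = 5.21e-07) and -0.85 in HS14 (edgeR adjusted p = 1.25e-08). *Casq2*, calsequestrin, which holds calcium inside the store, rose by 1.36 in HS3 (edgeR adjusted p = 2.37e-07) and changed by -0.87 in HS14 (edgeR adjusted p = 5.93e-09). *Stac3*, which couples the voltage sensor to the release channel, rose by 1.60 in HS3 and changed by -1.43 in HS1, both past the threshold. In HS14 its change of -0.39 did not pass, nor did that of *Ryr3* (0.42).

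Of the channels that admit calcium through the plasma membrane, *Cacna1g*, a T-type channel, had 6.21 and 8.68 CPM in Control, 2.29 and 2.53 for HS1, 13.9 and 18.6 for HS3, 2.23 and 3.28 for HS7, and 2.11 and 1.68 for HS14. *Cacna1g* and *Cacna1c*, an L-type channel, were the only members that were lower in all of HS1, HS7 and HS14 and higher in HS3 at an adjusted p of 0.01 in edgeR, a course opposite in sign to that of *Atp2a3* at all 4 time points. The log2 fold changes of *Cacna1c* were -1.99 for HS1, 1.12 for HS3, -0.73 for HS7 and -0.83 for HS14. *Cacna1s*, the voltage sensor of skeletal muscle, was lower in HS1 (-0.78) and higher in HS3 (1.15). In HS7 it lay above Control, like *Atp2a3*, by 2.59 without passing (edgeR adjusted p = 0.0569). Its change of -0.16 in HS14 did not pass either.

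*Slc24a3*, an exchanger that expels calcium against sodium, was the 1 member that passed in HS14 as higher, by 0.97 (standard error 0.21, edgeR adjusted p = 0.000201). Its libraries had 3.40 and 3.45 CPM in Control, 4.17 and 4.27 for HS1, 4.98 and 4.45 for HS3, 9.40 and 10.0 for HS7, and 7.85 and 5.60 for HS14. Unlike those of *Atp2a3*, its HS3 libraries lay above both controls, and its level was highest in HS7.

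In HS7, *Atp2a3* and the other genes of calcium handling were mostly on the same side of Control. Of the 15, 13 lay above Control (median log2 fold change 1.63), but 5 passed as higher and 2 as lower, where 16.6% and 16.2% of all genes did. The log2 difference between the HS7 libraries was 0.29 in *Atp2a3* and ranged in the 15 genes from 0.04 in *Pln* and *Cacna1b* and 0.09 in *Slc24a3* to 0.93 in *Sln* and 0.94 in *Cacna1s*. The count of 7, in either direction, depended on the libraries left out and on the fit: 12 passed with DESeq2 and 13 with all 10 libraries in one fit. The share of all genes passing in those 2 fits is not given here, so whether the change was particular to these genes was not tested.

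**Figure D3:**
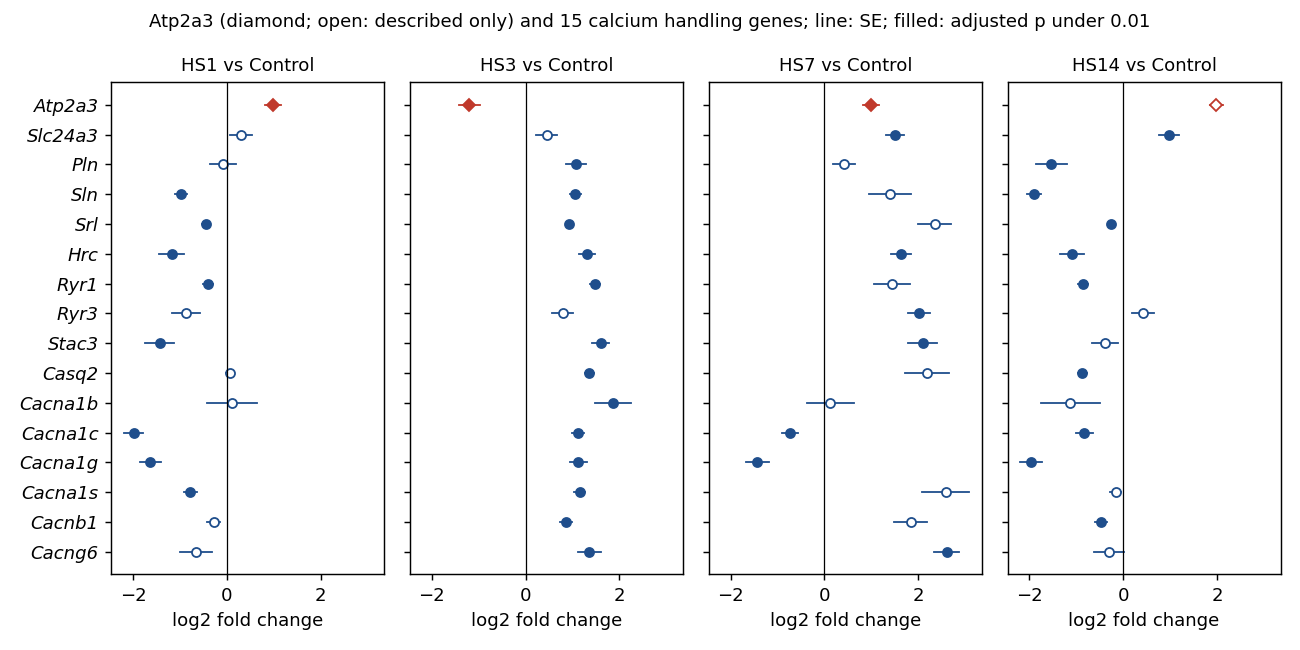
Log2 fold change against Control (horizontal axes) at each time point for *Atp2a3* (diamond) and 15 other calcium handling genes (rows); lines are standard errors, filled symbols of the 15 passed an adjusted p of 0.01, and the open diamond of HS14 was not tested. In HS3 all 15 genes lie to the right of 0 and *Atp2a3* to the left at -1.20, and in HS14 *Atp2a3* lies at 1.99 while 13 of the 15 lie to the left.

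Genes that followed the course of *Atp2a3* were sought among all expressed genes by the root mean square difference between log2 CPM profiles over the 10 libraries, each centred on its own mean. On this scale *Atp2a3* itself deviated from its mean by 1.07, and its libraries from their group means by 0.11. The libraries of a group share their treatment and, in part, their spread, so the distances are descriptions without a test, and a name could be given only to genes that the study had called. Of the 100 closest genes, 13 had a symbol. The 5 closest with a symbol were *Iqgap2*, a scaffold protein (0.42, with 2 genes ahead of it), *Rasip1*, a Ras-interacting protein (0.43), *Fgfr4*, a receptor for fibroblast growth factors (0.43), *Zfp536*, a zinc finger protein (0.46), and *Syt9*, a synaptotagmin (0.48, with 14 genes ahead). *Rasip1* belongs to the endothelial and *Fgfr4* to the myogenic marker list above. *Rasip1* had only 4 and 6 counts in HS3, near the floor, and its Control libraries were apart, with 18 and 44 counts.

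*Fgfr4*, the most abundant of them, had 66.6 and 68.5 CPM in Control, 69.0 and 68.5 for HS1, 21.3 and 25.0 for HS3, 103 and 120 for HS7, and 133 and 126 for HS14. It shared the low in HS3 and the high in HS14, but its HS1 libraries were at the level of the controls, where those of *Atp2a3* were above. *Iqgap2* had 2.45 and 3.49 CPM in Control, 4.82 and 5.05 for HS1, 0.610 and 0.994 for HS3, 4.13 and 3.71 for HS7, and 7.81 and 5.05 for HS14. Its groups stood in the order of those of *Atp2a3*, except that HS1 exceeded HS7.

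Over all genes, with or without a symbol, the smallest distance was 0.24 to *Atp2a3* and 0.23 to its mirror image. The closest single genes were thus about equally near. Past them the mirror image was matched more closely: with 2 genes ahead of each, *Iqgap2* lay at 0.42 and *Cracd* at 0.27. With the sign of its profile turned, *Ebf2*, a transcription factor of the early B-cell factor family, differed by 0.23, *Akap12*, an anchor of protein kinase A, by 0.24 and *Cracd*, a regulator of actin capping, by 0.27, and these were the 3 closest of all 13690 other genes. *Ebf2* had 26.6 and 31.2 CPM in Control, 14.0 and 12.1 for HS1, 56.8 and 53.4 for HS3, 10.2 and 12.1 for HS7, and 7.50 and 9.13 for HS14. *Akap12* had 403 and 414 CPM in Control, 228 and 216 for HS1, 853 and 961 for HS3, 262 and 195 for HS7, and 136 and 145 for HS14. In each of both genes the HS3 libraries were the highest of the 10 and the HS14 libraries the lowest, with HS1 and HS7 below Control.

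**Figure D4:**
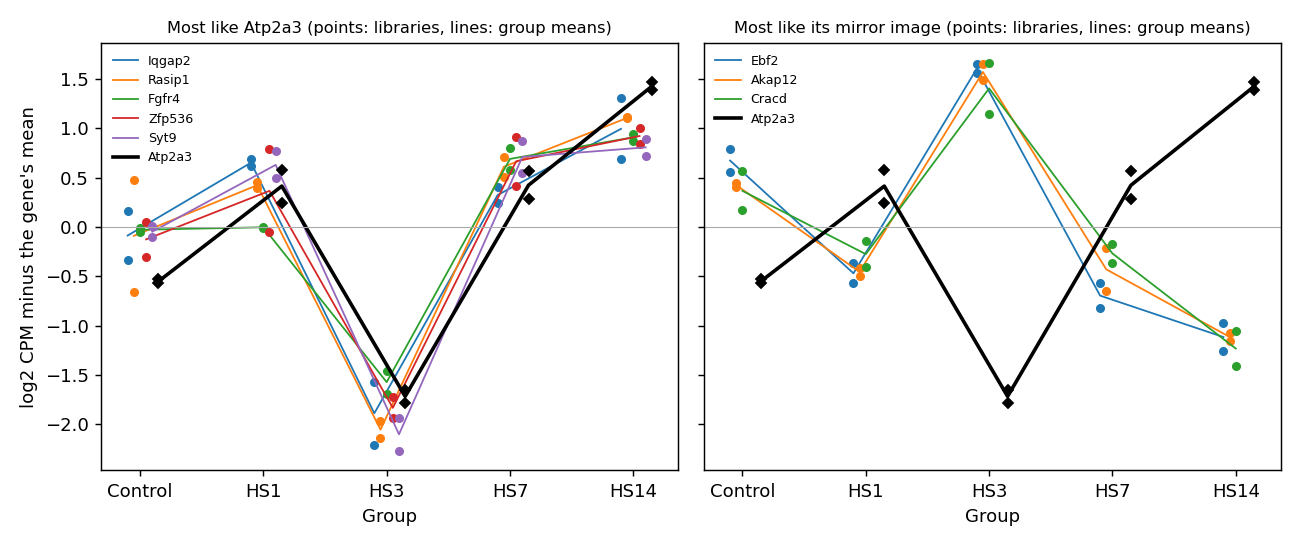
Centred log2 CPM (vertical axes) in the 5 groups for the 5 named genes most like *Atp2a3* (left) and the 3 most like its mirror image (right), with *Atp2a3* in black; points are libraries and lines join group means. The left panel shows the shared low in HS3, and the right panel *Ebf2*, *Akap12* and *Cracd* peaking there and lowest in HS14.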

How the data were processed

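Raw counts per Ensembl gene were deposited by the authors without normalization. Per the labels, reads were aligned with STAR 2.7 and counted with featureCounts 1.6.4. The labels name the genome Rnor_6.0 and the paper's methods mRatBN7.2, and the counting of read pairs, strand and multiply mapped reads is not given in the sources used here. Total counts per library lay between 20200972 and 28175200, and at least 69.4% of counts from 1 to 20 were even in each library, so a fragment may have been counted up to 2 times. The symbols of 770 identifiers came from the paper's list of DEGs, since the annotation used here holds no Ensembl identifiers; only identifiers were taken from it.

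Each pair of groups was fitted on its own 4 libraries with edgeR 4.0.16 in R 4.3.3 (filterByExpr, TMM, robust quasi-likelihood test, Benjamini-Hochberg adjustment over the genes tested; not adjusted over the 6 comparisons tested). Standard errors are the fold change divided by the square root of its F statistic. Passing means an adjusted p under 0.01, and a DEG also a log2 fold change beyond 1.5. log2 CPM used a prior count of 2. Each comparison was repeated with DESeq2 1.42.0, with RLE size factors, without the filter, in 1 fit of all 10 libraries, with a replicate block, with halved counts and with each library left out. On simulated data for HS7 against Control with 200 changed genes, edgeR recovered 200 with 3 false calls among 13108 genes. DESeq2 recovered 196 with 1 false call among 17540. These numbers hold for that simulation only. In the deposited libraries the coefficient of variation between replicates was 4.36% in Control and 8.77% in HS7, and recovery there was not tested. The genes named are *Atp2a3*, genes of a calcium handling list with a symbol, and the 5 most and 3 most oppositely similar genes with a symbol. The gene, lists and rules were chosen with earlier results of these data known. Upstream windows came from RefSeq (GRCr8).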

Additional observations from a re-analysis of the deposited data

Results flagged for a closer look

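By a direct test, on libraries that may not be separate animals or cultures, the level of *Atp2a3* differed between time points. It was 2.17 log2 units lower in HS3 than in HS1 (log2 fold change -2.17, edgeR adjusted p = 1.87e-09, lower in 2 of 2 libraries), with HS1 above and HS3 below the same Control libraries. It was 2.17 higher in HS7 than in HS3 (edgeR adjusted p = 4e-06, higher in 2 of 2 libraries). The summed fibroblast markers moved the other way between the same groups, from 2410 CPM in HS1 to 15500 to 19500 in HS3 and 8300 to 8340 in HS7. Most of that sum was *Col1a1*, which alone ran from 2170 to 18100 CPM over the libraries. The part of these markers in the differences of *Atp2a3* was not tested.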

How the results depend on the processing

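The 5 changes of *Atp2a3* that passed kept their direction under all 10 alternatives each, among them every library left out in turn. They passed in each alternative that left no library out. Those against Control use libraries that also entered the choice of the gene. With a library left out, where the lone sample is assumed to vary like the others, the log2 fold change ranged from 0.807 to 1.14 for HS1, from -1.26 to -1.12 for HS3 and from 0.838 to 1.13 in HS7 against Control. The difference of HS7 from HS1 changed sign without passing: it was 0.0079 with all 10 libraries in one fit, 0.0077 with halved counts, and between -0.17 and 0.166 with a library left out. The calcium handling genes that passed against Control in either direction numbered 4 for HS1, 7 for HS3, 13 for HS7 and 6 in HS14 with all 10 libraries in one fit. In HS7 they numbered 12 with DESeq2. The share of all genes passing in these fits is not given here. With a library left out, their number in HS7 also changed, and the cause was not tested. By Pearson's r, 3 of the 5 genes named as most like *Atp2a3* remained among the first 5 with a symbol (*Rasip1*, *Iqgap2* and *Fgfr4*), but with 108, 113 and 126 genes of all kinds ahead of them. A replicate block gave *Atp2a3* changes of 0.978 for HS1, -1.20 for HS3 and 0.989 for HS7, all passing. Over all genes, same-numbered libraries did not deviate together (correlations from -0.0165 to 0.0417). A pairing that touches few genes would not show in this check. The block moved the genes passing in HS3 against Control from 1511 to 2290. Having 2 libraries a group limits every SD given.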

Other observations

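Across the 13691 expressed genes, both HS14 libraries were the highest of the 10 for 1365 genes (9.97%) and both HS3 libraries the lowest for 1473 (10.8%). *Atp2a3* was 1 of 233 genes (1.70%) with both features. The distance between its highest and lowest group mean, 3.15 on the log2 scale, was reached or exceeded by 290 genes (2.12%). The genes that met all 3 conditions, which were set after the values were seen, numbered 5: *Atp2a3*, *Rasip1*, *Nup210*, *Celsr1* and ENSRNOG00000052054, which has no symbol here. *Atp2a3* met all 3 by construction, because they were read from its own values and it was chosen as high in HS14. These counts therefore do not measure how rare its course was. In HS3 the mean of ENSRNOG00000052054 (0.0199 CPM) was under the floor of 3 counts. Those of *Celsr1* (0.170) and *Rasip1* (0.221) were near it, so their distances are uncertain. *Nup210*, a nuclear pore protein, had means of 7.04 CPM in Control, 13.5 for HS1, 1.53 for HS3, 7.21 for HS7 and 15.6 for HS14. *Celsr1*, a cadherin of planar cell polarity, had 0.623, 0.697, 0.170, 1.75 and 2.72 CPM in the same order. In *Nup210* HS7 was near Control and in *Celsr1* HS1 was, while *Atp2a3* was above Control in both.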
